A study of Homo sapiens with 2 samples.

Results

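The 9 genes described here encode enzymes that supply the cytosol and mitochondria with the reductant NADPH, or that handle it: the pentose phosphate enzymes PGD, PGLS, TALDO1 and TKT, the malic enzymes ME1 and ME2, the isocitrate dehydrogenases IDH1 and IDH2, and the quinone reductase NQO1. They were picked by symbol from the 39720 gene symbols of the deposited table, and all 9 were found there. RNA sequencing was done on 2 libraries of A549, an established human lung adenocarcinoma cell line: 1 library from cells infected with lentivirus carrying a negative control short hairpin RNA (shNC), and 1 from cells infected with lentivirus carrying a hairpin against DEPDC1B (shDEPDC1B). Both infections used 5 µg/mL polybrene, and RNA was taken on day 2. The labels name neither the hairpin sequences nor any selection of infected cells. Differences below are between these libraries, with no replicate check and no p-value, and square brackets hold exact 95% intervals that cover counting error only.

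NADPH carries the electrons that cells spend on fatty acid and sterol synthesis and on keeping glutathione and thioredoxin reduced. The oxidative branch of the pentose phosphate pathway makes NADPH from glucose 6-phosphate and ends in a pentose phosphate, and the non-oxidative branch returns pentose phosphates to glycolysis. Malic enzymes make NADPH from malate, and IDH1 and IDH2 make it from isocitrate in the cytosol and in mitochondria. Several of these genes are known targets of the transcription factor NRF2, which the adaptor KEAP1 normally marks for degradation. A549 cells carry a KEAP1 mutation and are known for high NRF2 activity.

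The libraries held 18647290 counts (shNC) and 18862371 counts (shDEPDC1B). DEPDC1B itself had 329 counts in shNC and 39 in shDEPDC1B, which is 7.98-fold lower [5.72, 11.4]. A gene was assessed when its higher library had at least 30 counts, which held for 13850 genes and for all 9 genes described here. It was counted as higher or lower in shDEPDC1B when the ratio of scaled counts reached 1.5-fold and the interval excluded equality. The epithelial keratins KRT7, KRT8 and KRT18 were abundant. KRT8 was at 5498 and 5674 CPM (counts scaled to a library of 1000000) in shNC and shDEPDC1B. The other epithelial markers were less abundant: CDH1 at 160 and 145, KRT19 at 22.3 and 26, and EPCAM at 1.92 and 3.56 CPM. Markers of other cell types and of surfactant-producing lung cells summed to between 0.415 and 0.726 CPM per list and library once CD68 (35.8 and 27.1 CPM), which many cell types express, was set aside. The leukocyte marker CD3E and the fibroblast marker DCN were at 0 counts.

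Of the 9 genes, 1 was lower and 3 were higher in shDEPDC1B by this rule. The lower gene was IDH1, and the higher genes were PGLS, TALDO1 and PGD, all of the pentose phosphate pathway. Over all assessed genes 19.2% were higher and 19.6% lower by the same rule, so 3 and 1 of 9 are not far from the background in number. The intervals of 7 of the 9 genes lay wholly above equality, against 38.9% of assessed genes, and that of 1 lay wholly below it, against 34.9%. These shares are not like for like: intervals narrow with counts, and the 9 genes ranked from 30 to 5478 in level among 13850. After subtraction of a linear fit on transcript length and GC content, the intervals of PGLS [-0.04, 0.29] and IDH2 [-0.02, 0.20] included equality. That of ME2 [0.45, 0.63] then lay above it, by the length of its longest coding transcript. The median log2 ratio was 0.42 for the 9 genes and 0.04 for all assessed genes.

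**Figure D1:**
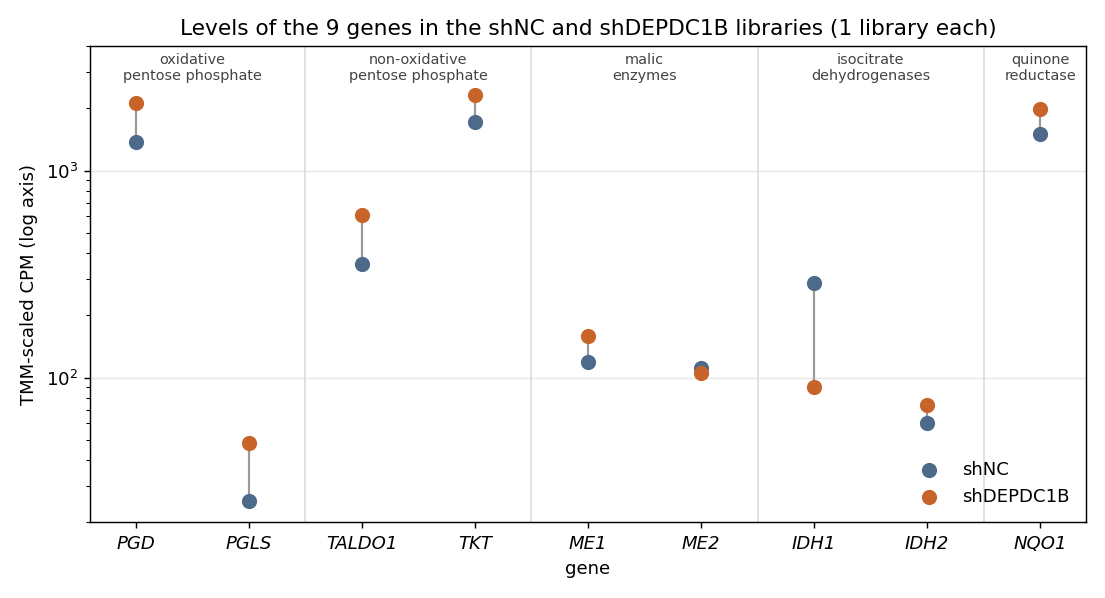
Level of each gene in TMM-scaled CPM (log axis) in the shNC and shDEPDC1B libraries, 1 point per library, grouped by pathway step. IDH1 is the gene with the widest gap, from 286 in shNC to 90.5 in shDEPDC1B, and the pentose phosphate genes all lie higher in shDEPDC1B.

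IDH1 had 5515 counts in shNC against 1651 in shDEPDC1B (286 and 90.5 CPM). Its level was 3.16-fold lower in shDEPDC1B [2.99, 3.34], a log2 ratio of -1.66 [-1.74, -1.58]. This was the widest difference among the 9 genes, and 327 of the 13850 assessed genes, IDH1 included, had a ratio as low or lower. IDH1 lies on the minus strand of chromosome 2, from 208236227 to 208266074 (GRCh38, GENCODE 29), and its longest coding transcript has 10 exons and 2441 nucleotides. The antisense gene IDH1-AS1 overlaps it over 935 bases and had 8 counts in shNC and 20 in shDEPDC1B, few beside those of IDH1.

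IDH2, the mitochondrial enzyme with the same reaction, did not share this difference. The gene lies on the minus strand of chromosome 15 (90083045 to 90102504) and has 11 exons. It had 1161 and 1348 counts, or 60.2 and 73.9 CPM, a log2 ratio of 0.30 [0.18, 0.41] that did not reach 1.5-fold. The difference between the log2 ratios of IDH1 and IDH2 was -1.96 [-2.10, -1.82], a value that needs no scaling of the libraries. IDH1 made up 82.6% [81.7, 83.5] of the counts of both genes in shNC and 55.1% [53.3, 56.8] in shDEPDC1B. Per kilobase of transcript, the level of IDH1 was 5.24 times that of IDH2 in shNC and 1.35 times in shDEPDC1B. By the longest coding transcripts the cytosolic form was the more abundant in both libraries, by a smaller margin in shDEPDC1B. The counts do not settle this order. In shDEPDC1B, IDH2 with its shortest coding transcript would be at 57.8 CPM per kilobase, above IDH1 with its longest (37.1). IDH1 with its shortest would be at 161.

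The NAD-linked isocitrate dehydrogenase of the citric acid cycle, made of the subunits IDH3A, IDH3B and IDH3G, went another way than IDH1. IDH3G was at 39.2 and 99.8 CPM (log2 ratio 1.35 [1.22, 1.47]) and IDH3B at 87.0 and 142 CPM (0.70 [0.61, 0.79]), both counted as higher. After subtraction of a linear fit on transcript length and GC content, IDH3G was at 0.85 and IDH3B at 0.29, under the limit. IDH3A, the catalytic subunit, was at 86.1 and 83.1 CPM (-0.05 [-0.15, 0.05]).

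In the oxidative branch, PGLS hydrolyses 6-phosphogluconolactone and PGD oxidises the resulting 6-phosphogluconate to ribulose 5-phosphate with release of NADPH. PGLS had 490 counts in shNC and 885 in shDEPDC1B (25.4 and 48.5 CPM), 1.91-fold higher [1.71, 2.14]. After a linear fit on transcript length and GC content was subtracted its log2 ratio went from 0.93 to 0.12 [-0.04, 0.29], which includes equality. PGD, far more abundant, had 26624 and 38771 counts (1381 and 2125 CPM), 1.54-fold higher [1.51, 1.56], just past the 1.5-fold limit. With DESeq2 size factors (0.57 as log2 ratio), library totals (0.53) or a smooth trend with level (loess) subtracted (0.31), PGD came under it. Both genes were thus higher in shDEPDC1B, and by log2 ratio PGLS lay 0.31 [0.15, 0.47] above PGD. PGLS spans 17511629 to 17521288 on the plus strand of chromosome 19 with 5 exons, and PGD 10398592 to 10420144 on the plus strand of chromosome 1 with 13 exons. An antisense gene overlaps PGLS over 2236 bases, and PGD has a processed pseudogene (PGDP1), whose reads the counting may not have kept apart.

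In the non-oxidative branch, TALDO1 (transaldolase) and TKT (transketolase) pass carbon units between sugar phosphates. TALDO1 had 6780 and 11120 counts (352 and 610 CPM), 1.73-fold higher in shDEPDC1B [1.68, 1.79]. TKT, the gene with the most counts of the 9, had 33078 and 42269 (1716 and 2317 CPM). At 1.35-fold [1.33, 1.37] TKT lay above equality but under the limit. The difference between the log2 ratios of TALDO1 and TKT was 0.36 [0.31, 0.41], beyond counting error, but 0.05 after the length and GC fit, and against genes of like length TKT (0.33) lay above TALDO1 (0.23). TALDO1 lies on chromosome 11 (747329 to 765024, plus strand, 8 exons) and TKT on chromosome 3 (53224707 to 53256052, minus strand, 14 exons).

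The 2 malic enzyme genes had different ratios before transcript length was taken into account. ME1 lies on chromosome 6 (83210389 to 83431071, minus strand, 14 exons) and ME2 on chromosome 18 (50878734 to 50954257, plus strand, 16 exons), and ME2 has a processed pseudogene (ME2P1). ME1, the cytosolic NADP-linked form, had 2292 and 2892 counts (119 and 159 CPM), 1.33-fold higher in shDEPDC1B [1.26, 1.41] and under the limit. ME2, a mitochondrial form that works mainly with NAD, had 2145 and 1910 counts (111 and 105 CPM), a log2 ratio of -0.09 [-0.18, 0.00] whose interval just included equality. It lay wholly below equality with DESeq2 size factors [-0.23, -0.05], library totals [-0.27, -0.09], upper-quartile factors [-0.19, -0.01] or protein-coding genes alone [-0.20, -0.02]. ME1 lay 0.50 [0.38, 0.62] above ME2 on the log2 scale, but 0.09 above it after the length and GC fit, and against genes of like length ME2 (0.54) lay above ME1 (0.31). Both corrections take the longest coding transcript of ME2. The share of ME1 in the counts of both genes was 51.7% [50.2, 53.1] in shNC and 60.2% [58.8, 61.6] in shDEPDC1B.

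NQO1 spends NADH or NADPH to reduce quinones and is a standard readout of NRF2 activity. The gene has 6 exons on the minus strand of chromosome 16 (69706996 to 69726951), with an antisense gene over 710 bases of it. It had 28923 counts in shNC and 36007 in shDEPDC1B (1500 and 1974 CPM), 1.32-fold higher [1.30, 1.34]. Its log2 ratio of 0.40 [0.37, 0.42] was close to that of ME1 (0.42) and TKT (0.43). The difference from ME1 was 0.02 [-0.06, 0.10], and that of TKT from NQO1 was 0.04 [0.01, 0.07]. After a loess on level was subtracted, NQO1 was at 0.08 [0.06, 0.10] and TKT at 0.10 [0.08, 0.12], and ME1 at 0.41 [0.33, 0.49]. Over all 36 pairs of the 9 genes, the interval of the difference excluded 0 for 31 pairs and included it for 5, with no adjustment for the number of pairs. The 5 pairs were PGLS with TALDO1, and ME1 with TKT, with IDH2 and with NQO1, and IDH2 with NQO1. All 8 pairs that hold IDH1 were apart, by 1.57 (ME2) to 2.59 (PGLS).

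**Figure D2:**
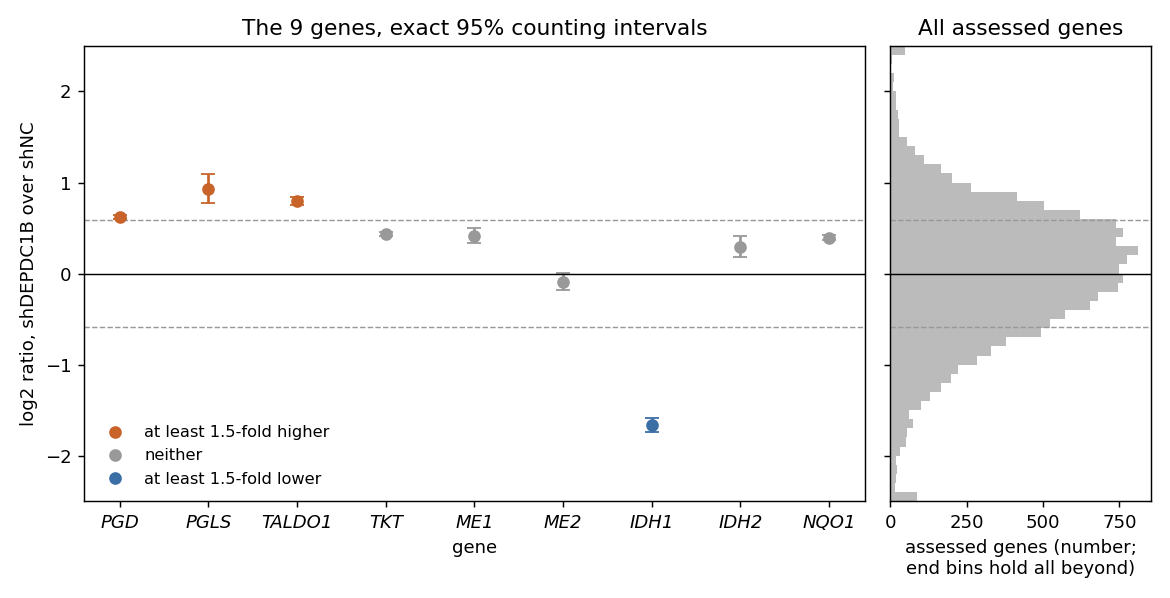
Log2 ratio of shDEPDC1B over shNC for each gene with its exact 95% counting interval (left), and the number of assessed genes at each ratio (right). Dashed lines mark 1.5-fold. IDH1 at -1.66 lies far down the distribution, and the other 8 genes lie between -0.09 and 0.93.

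The 9 genes together took 0.574% [0.570, 0.577] of all counts in shNC and 0.726% [0.722, 0.729] in shDEPDC1B. TKT, PGD and NQO1 supplied 82.8% of these in shNC and 85.5% in shDEPDC1B, and all 3 ranked among the 42 most abundant assessed genes by CPM. The share of IDH1 within the 9 went from 5.15% [5.02, 5.29] to 1.21% [1.15, 1.27], that of TALDO1 from 6.34% to 8.13%, and that of PGD from 24.9% to 28.3%. TKT stayed at 30.9% of the 9 in each library.

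Per kilobase of the longest coding transcript, the order of levels in shNC was PGD (733 CPM per kilobase), TKT (570), NQO1 (515), TALDO1 (261), IDH1 (117), ME1 (35.3), PGLS (24.7), IDH2 (22.4) and ME2 (11.8). The counting intervals of PGLS and IDH2 overlapped, and those of all other neighbours in this order were apart. In shDEPDC1B the first 4 places and the last 2 were held by the same genes, while IDH1 came after PGLS and ME1, with 37.1 CPM per kilobase against 47.2 and 47.0, 2 values that overlapped. The order rests on transcript lengths that the counts do not reveal. With its shortest coding transcript (2262 in place of 9415 nucleotides) ME2 would be at 49.2 in shNC, and TKT with its shortest (1931 in place of 3010) at 888.

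Long transcripts as a class were lower in shDEPDC1B and short ones higher, so each gene was also set beside genes of like length. PGLS and TALDO1, with 1028 and 1346 nucleotides, are in the length decile of assessed genes with the shortest transcripts, where 46.9% of 1302 genes were counted as higher and the median log2 ratio was 0.56. PGD, with 1885 nucleotides, is in the next decile, where 36.9% were higher and the median was 0.45. Against these medians PGLS was at 0.37, TALDO1 at 0.23 and PGD at 0.17, all under 1.5-fold. IDH1 is in a decile with 2388 to 2851 nucleotides, where 8.02% of 1297 genes were lower and the median was 0.23. Only 11 of these 1297 genes, IDH1 included, had a ratio as low as that of IDH1, which was 1.89 below the median. IDH2 is in the same decile and was 0.07 above its median. TKT, ME1 and NQO1 share a decile with a median of 0.11 and lay 0.33, 0.31 and 0.29 above it. ME2, among the longest transcripts by its 9415 nucleotides, was 0.54 above a median of -0.63. All these lengths are of the longest coding transcript. The shortest of ME2 has 2262 nucleotides, and the counts do not reveal which was expressed, so its length-corrected values are uncertain. After a linear fit on transcript length and GC content, IDH1 was at -1.65 and counted as lower, and ME1 at 0.63 was the single gene of the 9 counted as higher. Of the 13013 assessed genes with a length, 1685 were then higher and 1752 lower. The log2 ratios of PGLS, TALDO1 and PGD shrank against genes of like length, and that of TKT did so less (0.43 before and 0.33 after). The part of transcript length in these differences was not tested. The difference of IDH1 was as large within its length class.

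**Figure D3:**
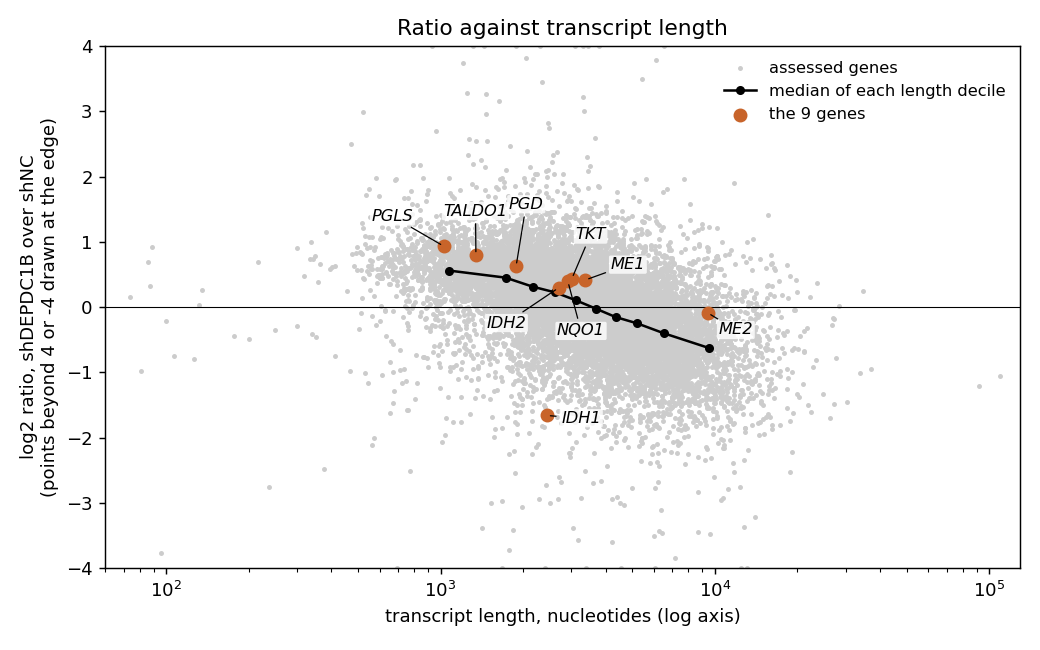
Log2 ratio against transcript length (log axis) for assessed genes, with the median of each length decile as a line and the 9 genes in orange. PGLS, TALDO1 and PGD sit near the left, raised end of the line, and IDH1 sits 1.89 below it.

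Several of the 9 genes are known NRF2 targets, and the core of the antioxidant response element that NRF2 binds with small MAF proteins is TGACNNNGC. This core was searched on both strands of the RefSeq promoter window (GRCh38.p14, 250 bases before to 50 after the start), which was present for all 9 genes. It was found for 2 of them, PGD and ME1, and in 15.0% of 10317 assessed genes with such a window. Among genes at least 1.5-fold higher 15.5% held it, and among those at least 1.5-fold lower 13.8%. The stretches of the matches before the RefSeq start are given 5′ to 3′ on the gene's strand with the core in capitals, because PGD and ME1 are the genes of the 9 that hold one. In PGD (chr1:10398853-10398881, plus strand) the core reads on the opposite strand and begins 201 bases before the RefSeq start at 10399064, and in ME1 (chr6:83431170-83431198, minus strand) it reads on the gene's strand and begins 137 bases before the RefSeq start at 83431051. The GENCODE 29 gene model of PGD starts earlier, at 10398592, so the stretch lies inside that model.
PGD: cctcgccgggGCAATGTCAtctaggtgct
ME1: tctcctgccaTGACTCAGCgcttctcgca
A further match in ME1 lies after the start. PGLS, TALDO1, TKT, ME2, IDH1, IDH2 and NQO1 had no match in this window, which says only that these letters are absent there. A match is a description of sequence and not of binding.

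Of 13 other genes of the pentose and ribose phosphate routes 11 were assessed, and 2 of these were higher and 0 lower, near the 19.2% of all assessed genes that were higher and below the 19.6% that were lower. Their median log2 ratio was -0.06. The higher genes were RPIA, the isomerase between ribulose and ribose 5-phosphate, at 17.9 and 34.3 CPM (0.93 [0.74, 1.13]), and the ribokinase RBKS at 9.85 and 16.6 CPM (0.75 [0.48, 1.02]). RPE, the epimerase beside RPIA, was at 104 and 92.3 CPM (-0.17 [-0.27, -0.08]). The transketolase-like genes TKTL1 and TKTL2 had 0 counts in each library, so TKT was the only transketolase gene with counts. After the length and GC fit 1 of the 11 was counted as higher, RPIA, beside 1685 of the 13013 assessed genes with a length. With the median of each gene's length decile subtracted instead, 0 were higher and 1 was lower, beside 1686 and 1954 of the 13013.

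Other genes that form NADPH or NADP gave the lowest median of the lists, -0.27 over 9 assessed of 10 genes, with 4 lower and 1 higher (19.6% and 19.2% over all assessed genes). The 4 lower genes encode mitochondrial proteins, but so does the 1 higher gene, ME3. MTHFD2, a folate dehydrogenase that works mainly with NAD, was at 142 and 37.7 CPM (-1.91 [-2.04, -1.79]). ALDH1L2, which releases NADPH from 10-formyltetrahydrofolate, was at 13.7 and 3.73 CPM (-1.88 [-2.28, -1.49]). NNT, the proton-driven transhydrogenase, was at 24.2 and 8.99 CPM (-1.43 [-1.70, -1.17]), and NADK2, the mitochondrial NAD kinase, at 32.4 and 20.3 CPM (-0.68 [-0.87, -0.49]). After the length and GC fit MTHFD2 (-1.62), ALDH1L2 (-1.38) and NNT (-0.94) still lay beyond 1.5-fold and NADK2 (-0.37) did not. The cytosolic MTHFD1 (-0.02 [-0.08, 0.05]) and NADK (0.24 [0.11, 0.37]) were not counted as lower. Nor were the mitochondrial MTHFD2L (0.33 [0.08, 0.57]) and GLUD1 (-0.27 [-0.34, -0.20]). The malic enzyme ME3 was higher at 0.71 [0.45, 0.97], though at 0.42 after the fit. ALDH1L1, the cytosolic counterpart of ALDH1L2, had too few counts to be assessed (12 and 3, -1.92 [-4.39, -0.03]) and was a further lower gene, 5 in all, with a filter at 10 counts or with none.

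Around citrate and malate, 4 of 11 genes were higher and 0 were lower (median 0.41), beside 19.2% and 19.6% over all assessed genes. Beside IDH3G and IDH3B, the higher genes included pyruvate carboxylase PC at 37.5 and 81.1 CPM (1.11 [0.98, 1.24]). ACO1, the cytosolic aconitase that makes the substrate of IDH1, was at 126 and 98.4 CPM (-0.36 [-0.45, -0.27]), under the limit.

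Among 22 reductases, most of which spend NADPH, 8 were higher and 0 were lower (median 0.44), where 19.2% and 19.6% of all assessed genes were. The 8 include NQO2 (0.77 [0.61, 0.93], and 1.25 after the length and GC fit), for which NADPH is not the main electron donor. AKR1C3, an aldo-keto reductase, was at 1823 and 3633 CPM (0.99 [0.98, 1.01]), though genes of the AKR1C family resemble each other and share reads. POR, which feeds electrons to cytochromes P450, was at 115 and 212 CPM (0.88 [0.80, 0.96]), the mitochondrial thioredoxin reductase TXNRD2 at 19.4 and 38.2 CPM (0.98 [0.79, 1.16]) and the sterol reductase DHCR7 at 111 and 182 CPM (0.72 [0.64, 0.79]). TXNRD1, the cytosolic thioredoxin reductase, was at 2324 and 2155 CPM (-0.11 [-0.13, -0.09]). The count of 8 was 5 with library totals and 4 after the length and GC fit, which put POR at 0.54 and DHCR7 at 0.46, under the limit. Over all assessed genes 2029 of 13850 were higher with library totals, and 1685 of the 13013 with a length after the fit.

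The NRF2 gene NFE2L2 was at 130 and 127 CPM, a log2 ratio of -0.03 [-0.11, 0.05] that included equality. KEAP1 was at 53.5 and 111 CPM (1.05 [0.94, 1.16]). Of 9 genes of NRF2 and its control 5 were higher and none lower (median 0.61), against 19.2% and 19.6% of all assessed genes. The higher genes included the partners MAFG (0.63 [0.54, 0.73]) and MAFK (0.61 [0.54, 0.67]), and SQSTM1, which binds KEAP1, at 0.82 [0.79, 0.86]. The deposited value of SQSTM1 is not a whole number of hundredths, as a mean over gene copies would give, so its interval is uncertain. With DESeq2 size factors or library totals 2 of the 9 control genes were counted as higher, KEAP1 and SQSTM1, and MAFG and MAFK came under the limit. Over all 13850 assessed genes 2284 and 2029 were higher with these 2 scalings. With library totals 1 of the 9 was counted as lower, beside 3207 of all assessed genes. After the length and GC fit MAFG was at 0.66 and MAFK at 0.35. Of 16 other NRF2 targets 8 were higher and 1 lower (median 0.60), again against 19.2% and 19.6%. They ran from CYP4F11 (1.79 [1.70, 1.89]) and OSGIN1 (1.45 [1.32, 1.59]) to the cystine transporter SLC7A11 (-1.22 [-1.26, -1.17]). After the length and GC fit 5 of the 16 were counted as higher and 1 lower, beside 1685 and 1752 of the 13013 assessed genes with a length. SLC7A11, whose transcript has 9645 nucleotides, was then at -0.48, under the limit. With the median of each gene's length decile subtracted instead, 4 of the 16 were higher and 3 lower, beside 1686 and 1954 of the 13013. The ferritin light chain FTL was at 4779 and 10437 CPM (1.13 [1.12, 1.14]), with the caution that it has many pseudogenes, and was at 0.44 after the fit. NQO1 at 0.40 and ME1 at 0.42 were below the median of these targets. After the fit NQO1 (0.42) was below their median of 0.48 and ME1 (0.63) above it.

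**Figure D4:**
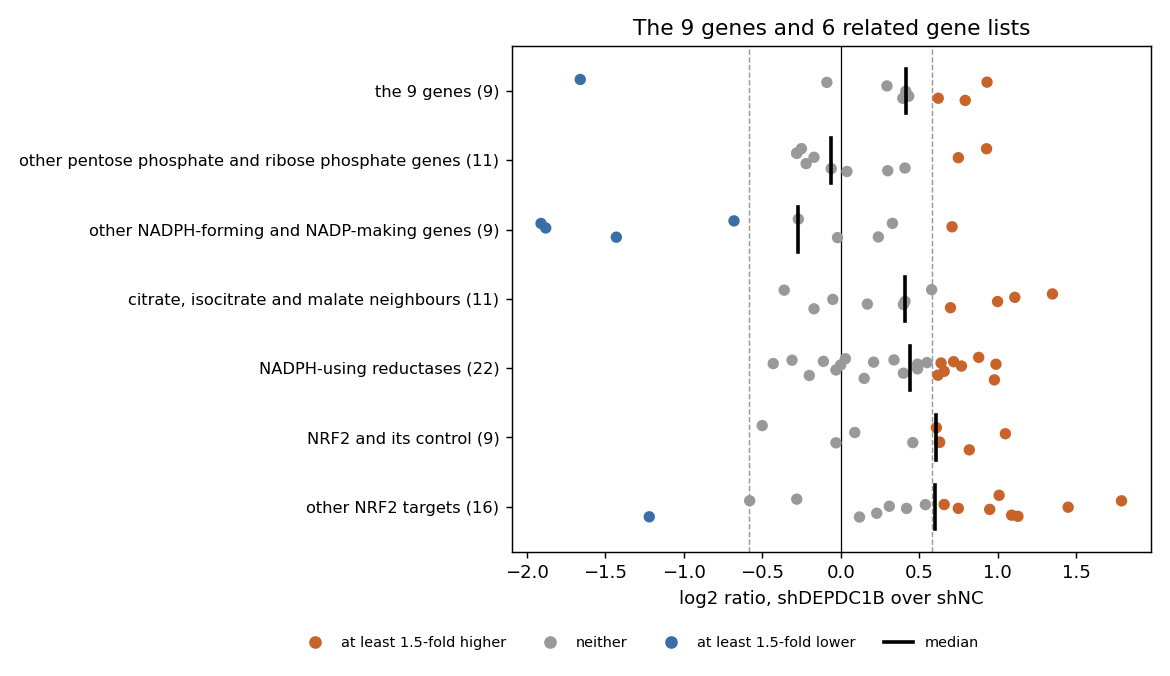
Log2 ratio of shDEPDC1B over shNC for the assessed genes of the 9 and of 6 related lists, 1 point per gene with vertical scatter for sight, and a bar at each list's median. Medians run from -0.27 for other NADPH-forming genes to 0.61 for NRF2 and its control.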

How the data were processed

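RNA from 1 shNC and 1 shDEPDC1B library was analysed from 1 table of estimated counts per gene symbol, which the authors deposited without scaling for depth and which come from Bowtie2 and RSEM on hg38, per the submitters' processing notes. No version, annotation or strand setting is named there. RSEM divides reads that match several genes by a model, which counting intervals do not hold. Counts were rounded to whole numbers and scaled with TMM factors (edgeR 4.0.16, R 4.3.3). Ratios have exact Clopper-Pearson 95% intervals (scipy 1.17.1), and levels per kilobase have exact Poisson intervals. Differences between genes have exact conditional intervals of the odds ratio. Where a library had 0 counts, 3 counts were taken as its floor. Reads carry no molecular identifiers. With 1 library per group no p-value was computed. Transcript lengths, GC and coordinates are from GENCODE 29, and promoters from RefSeq (GRCh38.p14). The linear fit on log2 length and GC used the 94.0% of assessed genes that have a length, and took up 24.6% of the variance of their log2 ratios. Intervals after the fit are the counting intervals shifted by its value and hold no error of the fit.

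The 9 genes and the 6 lists were chosen with earlier results of these data known, so no list was tested. Named were the 9 genes, DEPDC1B, NFE2L2, KEAP1 and up to 4 genes per list at 1.5-fold or more with the interval bound farthest from equality. Other genes named for contrast or as a caution (IDH3A, RPE, TKTL1, TKTL2, MTHFD1, MTHFD2L, GLUD1, ALDH1L1, NADK, ME3, ACO1, TXNRD1, NQO2) were chosen after their values were seen. One gene that this rule names is not reported here. With 2 libraries a pattern is a single ratio, so no genes were ranked by likeness. The steps were tested on simulated counts with Poisson counting error alone. These held no spread between cultures and no trend with length, so that test cannot speak to either. Tried instead were upper-quartile factors, library totals and DESeq2 1.42.0 size factors, other count filters, fold limits, a prior count of 2, a loess on level, length corrections, protein-coding genes alone and unrounded counts. A level per kilobase of the shortest coding transcript was added after the data were seen.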

Additional observations from a re-analysis of the deposited data

How the results depend on the processing

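No paired analysis was possible because each group has 1 library. IDH1 was at least 1.5-fold lower under all 12 alternatives that give a ratio, from -1.89 to -1.65, and 1 gene of the 9 was counted as lower under every alternative, a fold limit of 2 included. The count of higher genes among the 9 (3) was 2 with DESeq2 size factors, library totals or a loess on level, 1 after the length and GC fit, 0 after subtraction of the length decile's median and 0 at a fold limit of 2. PGD was counted as higher under 7 of the 12 alternatives, and PGLS and TALDO1 under 10. The median of the 9 (0.42) was 0.32 with library totals, 0.31 after the loess and 0.29 after either length correction. ME2 changed sign under both length corrections (0.54), which take its longest coding transcript (9415 nucleotides) and not its shortest (2262). Over all assessed genes 2662 were higher and 2708 lower. These numbers were 1685 and 1752 after the length and GC fit, 1686 higher after the length decile's median, 812 and 1243 at a fold limit of 2, and 1418 and 1678 where the interval had to lie wholly beyond 1.5-fold. With library totals lower genes made up 61.2% of those past the limit, against 50.4% with TMM, and every ratio shifted by -0.10. After the length and GC fit 18 of the 36 differences between genes changed sign, 2 of which included 0 before it (PGLS minus TALDO1, -0.16, and TKT minus ME1, -0.40). The other 16 were PGD minus PGLS (0.20), TALDO1 (0.04), ME1 (-0.30), ME2 (-0.21) and NQO1 (-0.09), PGLS minus TKT (-0.11), ME1 (-0.50), ME2 (-0.41) and NQO1 (-0.29), TALDO1 minus ME1 (-0.34), ME2 (-0.25) and NQO1 (-0.13), TKT minus ME2 (-0.31) and NQO1 (-0.19), and ME2 minus IDH2 (0.45) and NQO1 (0.12). No difference that involves IDH1 was among them. The fit used the longest coding transcript of each of the 9 genes, and the counts do not reveal which transcript was expressed. The cause was not tested. Spread between cultures is unknown, and depth limits PGLS most, with 490 counts in shNC.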
